A study of Homo sapiens with 6 samples.

Results

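AS2 is an antisense oligonucleotide against MALAT1, the long noncoding RNA that is kept in the nucleus and gathers in nuclear speckles. Its effect was read in WI-38 cells, human diploid lung fibroblasts with a finite life span, as the difference between 2 arrays of cells given AS2 and 2 arrays of cells given a scrambled control oligonucleotide (Ctr). These are 4 of the 6 exon arrays of the study, and the other 2, from cells given a further MALAT1 oligonucleotide (AS1), were used to estimate the spread and to ask where the AS2 response was not shared. All cells received their oligonucleotide at 100 nM in 2 transfections set 24 h apart, and 100 ng of total RNA went into each labelling. A gene value is the mean log2 value of the probesets that carry that gene's symbol alone, and 15417 genes with at least 3 such probesets were compared, of 16573 genes with any. The labels number the arrays of a group 1 and 2 without saying that they came from separate cultures, so the p-values below cover the spread among these arrays alone, which may be technical.

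Phosphorothioate DNA oligonucleotides of this kind pair with their RNA and recruit RNase H, which cuts the RNA strand of the hybrid. The sequences of AS2 and of its control are shown because they define the comparison. The stretch of MALAT1 that AS2 pairs with follows from the first of them and is printed as its reverse complement.
MALAT1-AS2: atggaggtatgacatataat
SCR-OLIGO: gttagtgatacgatgataaa
complement of MALAT1-AS2: attatatgtcatacctccat
Both oligonucleotides are 20 bases long, and both are made of 8 A, 1 C, 5 G and 6 T, so that they differ in base order and not in composition. AS1, by contrast, holds 10 G or C bases against 6 in AS2 and in its control.

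The targeted RNA was lower in both AS2 samples. MALAT1 had log2 gene values of 8.19 and 8.13 with AS2, against 12.01 and 11.97 with Ctr. The groups lay far apart relative to the gap within either one, and the fitted change was -3.82 ± 0.33 on the log2 scale (SE, n = 2 arrays each, adjusted p = 4.24e-05), a 14.2-fold reduction. The AS1 arrays, which also enter this SE, read 9.23 and 7.82. Among all genes its level stood at the 67.8th percentile with AS2 and at the 99.8th with Ctr. Each of its 11 probesets was lower with AS2, by 4.17-fold to 30.02-fold. The probeset with the least change, 3335178, read 10.39 and 10.04 with AS2 and 12.32 and 12.23 with Ctr. The probeset with the most, 3335177, read 6.93 and 7.26 with AS2 and 11.97 and 12.03 with Ctr. No place for the AS2 pairing site among these probesets is given here.

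**Figure D1:**
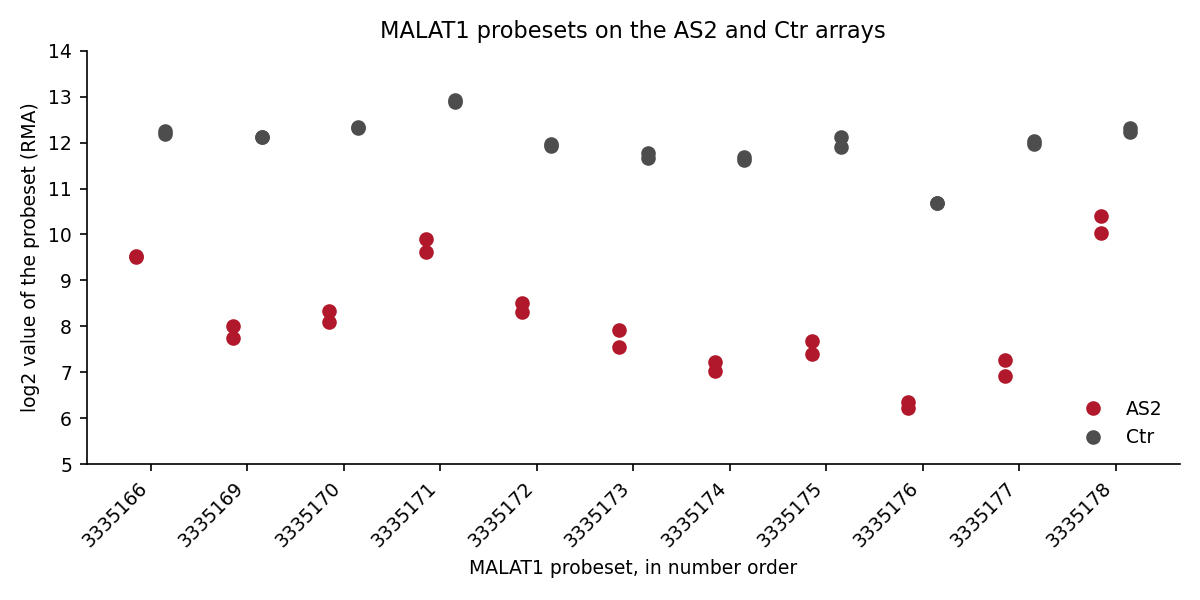
Log2 values of the 11 MALAT1 probesets on each AS2 array (red, left of each pair) and each Ctr array (grey, right), with probesets in number order along the x axis. In every probeset both AS2 points lie under both Ctr points, from a 4.17-fold to a 30.02-fold difference.

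The response reached far beyond MALAT1. Changes are given as AS2 minus Ctr on the log2 scale with the standard error of the limma fit, and a gene is called where its Benjamini-Hochberg adjusted p was under 0.05 over all 15417 genes. By that measure 3224 genes (20.9%) changed, 1792 of them higher (11.6%) and 1432 lower (9.29%). The median change was 0.68 among genes called higher and -0.68 among those called lower, and 1125 called genes moved by under 1.5-fold, while 362 were over 2-fold higher, 283 over 2-fold lower, and 52 and 24 passed 4-fold. The median change over all genes was -0.03, the smallest change that was called was 0.39 in size, and the largest that was not called was 0.85. In each of the 3224 called genes the AS2 arrays lay wholly above or wholly below the Ctr arrays, but so they did in 5383 genes that were not called, so that the groups were apart in 55.8% of all genes and separation of 2 arrays from 2 arrays was common. The number of calls rested partly on single arrays. Leaving out AS2 replicate 1 gave 1774 calls and AS2 replicate 2 gave 1259, while leaving out Ctr replicate 1 or 2 gave 2470 or 2402. In all, 1093 genes were called whichever array was left out. A change described below as holding is one of these 1093, which speaks of left-out arrays alone. The same linear model without limma's moderation of the variances called 436 genes.

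Gene calls rest on the mean of their probesets, which did not always move one way. Among called genes with at least 5 probesets, every probeset moved with the gene in 834 of 1661 that rose and in 767 of 1350 that fell, against 882 of 10879 genes not called. Calls were least frequent among dim genes, with 6.68% called in the dimmest of 5 equal groups by level, then 17.1%, 25.3% and 30.6% in the next groups and 24.9% in the brightest. When genes were ranked by their Ctr level, a value that also enters the change, all 15 of the largest rises lay under the 50th percentile of that rank and 9 of them under the 20th. The 15 largest falls began higher, at a median Ctr percentile of 73.5, and only SLC7A14 among them lay under the 50th. All genes called higher had a median Ctr percentile of 55.1, and rises over 2-fold were found at every level, with 35, 88, 94, 80 and 65 in the 5 groups from dim to bright. A change in RNA amount in these bulk samples cannot be told apart as fewer cells that express a gene or less of its RNA per cell.

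**Figure D2:**
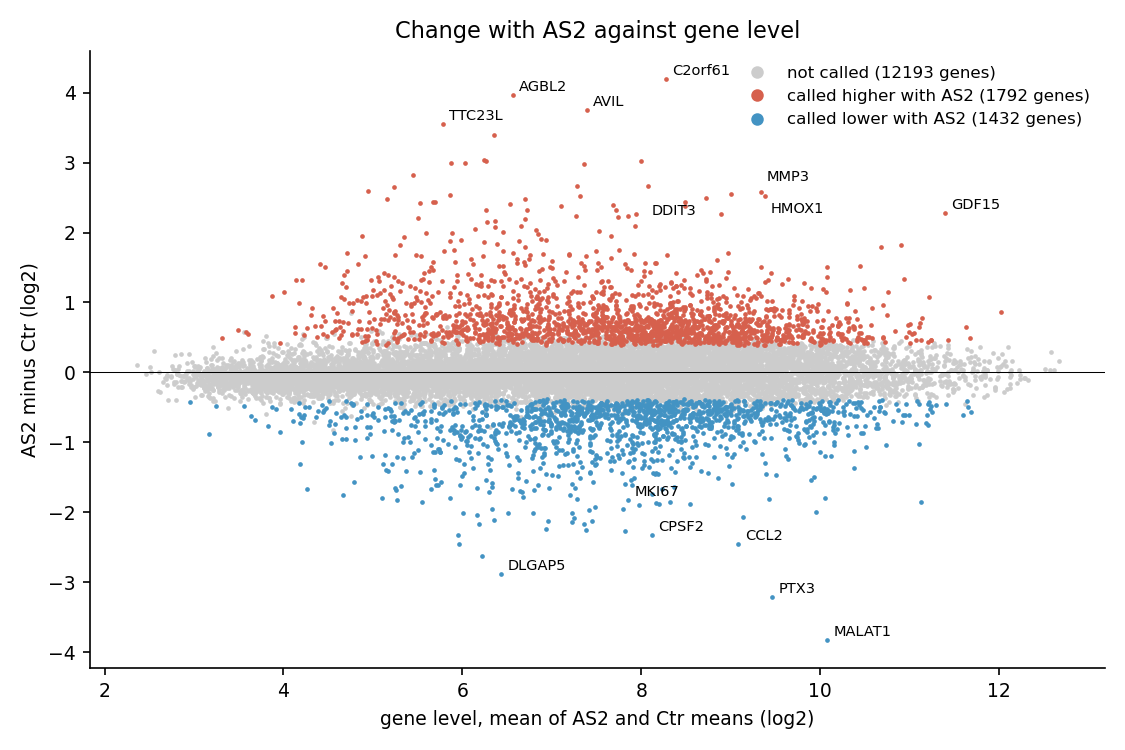
Change with AS2 (log2, y axis) against gene level (mean of the AS2 and Ctr means, log2, x axis) for 15417 genes, with genes called higher in red, called lower in blue and not called in grey. Most of the largest rises sit at low and middling levels, although C2orf61, the largest, sits further right. MALAT1 and PTX3 stand out among bright genes that fell.

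After MALAT1, the deepest fall was in PTX3, a soluble pattern recognition molecule that fibroblasts secrete in inflammation. PTX3 read 7.84 and 7.87 with AS2 against 11.30 and 10.83 with Ctr, 9.27-fold lower (-3.21 ± 0.19, adjusted p = 4.15e-06). CCL2, the monocyte-attracting chemokine, read 7.77 and 7.95 with AS2 against 10.44 and 10.18 with Ctr, 5.47-fold lower (-2.45 ± 0.14, adjusted p = 4.02e-06). Both were thus among the brighter genes of the control cells and lost most of their signal. Others of the 15 largest falls were GPR155 (-2.63), FAM111B (-2.46), SLC7A14 (-2.33), the axon guidance ligand SLIT2 (-2.26), RFTN2 (-2.24), TMEFF2 (-2.17), the DNA translocase HLTF (-2.17), the mitotic kinase PBK (-2.14) and VAT1L (-2.13), and all 15 held. DLGAP5, BUB1B and CPSF2, which complete the set, are described below. Among bright genes, TRPA1, a cation channel opened by irritants, fell to 8.88 and 9.02 with AS2, against 11.21 and 10.68 with Ctr, and SLC36A4 (-2.01), SYT1 (-1.95), KRTAP1-5 (-1.93) and C13orf15 (-1.89, now RGCC) followed.

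The largest rises formed a different kind of set. C2orf61 (now STPG4) read 10.24 and 10.50 with AS2 against 6.17 and 6.18 with Ctr, 18.4-fold higher (4.20 ± 0.14, adjusted p = 1.25e-07). AGBL2, a cytosolic carboxypeptidase that trims tubulin tails, read 8.5 and 8.60 against 4.61 and 4.55, 15.7-fold higher with AS2. AVIL, the actin-binding protein advillin, read 9.25 and 9.29 against 5.60 and 5.43, 13.5-fold higher with AS2. In each of these the arrays of a group lay close together and far from those of the other group. TTC23L (3.55), ALS2CR12 (3.40, now FLACC1), ACRC (3.04, now GCNA), MICALCL (3.03), the sulfate transporter gene SLC13A4 (3.03), the oocyte growth factor GDF9 (3.0), CCDC62 (2.99), the muscle glycogen phosphorylase PYGM (2.99), SERPINB10 (2.82), CDRT1 (2.67), C3orf62 (2.66) and ADAM32 (2.65) complete the 15. All of them held, and every probeset was higher in 13 of the 15. Their Ctr levels lay between the 4.74th and the 42.5th percentile of all genes. Among genes of at least median brightness the largest rises also included SELPLG (2.55), SLC16A14 (2.52) and DOCK9 (2.44), beside the stress genes described below.

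Most of the measured cell division genes fell. Mitosis depends on kinetochore proteins, which tie chromosomes to the spindle and hold anaphase until every chromosome is attached, and on motors and condensins that build the spindle and compact the chromosomes. Of 38 measured kinetochore and checkpoint genes, 23 fell and none rose, with a median change of -0.80 beside -0.03 for all genes. Of 42 measured spindle, condensin and cytokinesis genes, 37 fell and none rose, with a median change of -1.0. Without AS2 replicate 2 these counts were 15 and 23, and without Ctr replicate 1 they were 22 and 37. Without Ctr replicate 2, 2 kinetochore genes were called higher.

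The steepest fall in these lists was that of DLGAP5, which stabilises kinetochore fibres. DLGAP5 read 4.96 and 5.03 with AS2 against 7.69 and 8.06 with Ctr, 7.36-fold lower (-2.88 ± 0.17, adjusted p = 4.15e-06). BUB1B, the checkpoint kinase BubR1, read 6.43 and 6.09 with AS2 against 8.37 and 8.65 with Ctr (-2.25 ± 0.20, adjusted p = 4.9e-05). ANLN, the scaffold of the cytokinetic ring, read 8.14 and 8.06 with AS2 against 10.09 and 10.25 with Ctr (-2.06 ± 0.18, adjusted p = 4.42e-05). None of these gene values came near the other group. CDC2 (now CDK1), the kinase that drives entry into mitosis, fell 4.02-fold, to 5.89 and 5.68 with AS2, against 7.59 and 7.99 with Ctr. MKI67, the proliferation antigen Ki-67, fell 3.55-fold, to 7.07 and 6.80 with AS2, against 8.60 and 8.93 with Ctr. SPC25 (-1.85) of the NDC80 complex, KIF20A (-1.85), BUB1 (-1.81), TOP2A (-1.67), NCAPG (-1.66) of condensin, HMMR (-1.61), TTK (-1.57), CDCA8 (-1.56) and AURKB (-1.26) fell in the same way, and all of these calls held. Members that did not pass the test included the checkpoint gene BUB3 (-0.26) and the centromeric histone gene CENPA (-0.22).

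Genes of this group share a promoter element in human cells, the cell cycle homology region (CHR), which the MuvB complex reads, often near a CCAAT box bound by NF-Y. RefSeq promoter windows (GRCh38.p14, 300 bases from 250 before the start) were found for 12367 of the tested genes. The CHR letters TTTGAA, on either strand, occurred in 28 of 39 spindle windows (71.8%) and 15 of 32 kinetochore windows (46.9%), beside 11.4% of all windows. In 35 of the 43 windows with a match it began within 50 bases of the annotated start. Windows with both TTTGAA and CCAAT made up 53.8% of the spindle list, 28.1% of the kinetochore list and 4.58% of all windows. The stretches of 5 strongly lowered genes are printed on the gene's own strand, with 1 CHR match each in capitals. The windows of ANLN and MKI67 hold 2 matches and that of DLGAP5 holds 3. The CDC2 match begins at -161 from the start, outside those 50 bases.
DLGAP5 (chr14:55191565-55191594, minus strand): cggtgcggcaagTTTGAAtttcgtggaggc
BUB1B (chr15:40161034-40161063, plus strand): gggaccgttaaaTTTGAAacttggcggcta
ANLN (chr7:36389830-36389859, plus strand): ctgaaattcaaaTTTGAAcggctgcagagg
MKI67 (chr10:128126435-128126464, minus strand): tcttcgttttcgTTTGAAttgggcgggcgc
CDC2 (chr10:60778158-60778187, plus strand): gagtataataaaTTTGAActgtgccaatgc
The element did not divide the lists by outcome, since it stood in 34 of 53 windows of genes that fell (64.2%) and in 9 of 18 windows of genes that were not called (50%). CCNB2, which has it, read -0.52 and was not called, and CENPA also has it.

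DNA replication genes fell too, but less uniformly. Origins are licensed in G1 by the ORC, CDC6 and MCM proteins and are fired in S phase through CDC45, the GINS complex and the DNA polymerases. Of 50 measured licensing and replisome genes, 25 fell and 2 rose, with a median change of -0.46. The lower count ranged from 14 without AS2 replicate 2 to 26 without Ctr replicate 1. WDHD1, which couples the helicase to polymerase alpha, fell 3.25-fold, to 5.88 and 5.70 with AS2, against 7.29 and 7.69 with Ctr. POLE2 read 4.89 and 4.73 with AS2 against 6.18 and 6.78 with Ctr, and GINS2 read 7.28 and 6.90 against 8.42 and 8.99. In these genes Ctr replicate 2 was the higher of the control arrays, and the list as a whole averaged 7.04 and 7.0 with AS2 against 7.43 and 7.67 with Ctr. POLA1 (-1.40), MCM10 (-1.37), CDC45L (-1.32), CLSPN (-1.31), MCM6 (-1.26) and CDC6 (-1.06) also fell, and all 9 calls held. The sliding clamp PCNA read 8.82 and 8.90 with AS2 against 8.94 and 9.18 with Ctr, a change of -0.20 ± 0.13 that did not pass the test (adjusted p = 0.38). MCM5 (0.54) and ORC5L (0.81) rose, but without AS2 replicate 2 neither was called (adjusted p = 0.0841 and 0.0713), and MCM5 had an adjusted p of 0.197 when AS2 replicate 1 was left out and 0.195 when Ctr replicate 1 was.

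Replication genes are classic targets of E2F, whose sites carry cores such as TTTCCCGC and TTTGGCGC. Either of these occurred, on either strand, in 17 of 44 windows of the replication list (38.6%), beside 3.15% of all windows, while TTTGAA occurred in 1 of the 44. Within the list the cores stood in 13 of 23 windows of genes that fell and 4 of 20 windows of genes not called. Stretches of 4 of the genes that fell are printed on the gene's strand, with the core or its complement in capitals.
GINS2 (chr16:85688967-85688996, minus strand): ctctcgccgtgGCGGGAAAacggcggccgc
POLE2 (chr14:49688201-49688230, minus strand): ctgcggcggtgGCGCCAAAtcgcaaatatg
CDC6 (chr17:40287875-40287904, plus strand): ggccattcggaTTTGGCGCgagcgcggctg
MCM6 (chr2:135876515-135876544, minus strand): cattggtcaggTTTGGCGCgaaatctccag
PCNA, which was not called, carries TTTCCCGC on the other strand as well, and a match in these windows is a description of the sequence and not of binding.

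The regulators above these genes did not all move one way. In the list of E2F, MYB, FOXM1 and RB family genes, 6 of 17 fell and 2 rose, and the lower count was 2 with AS2 replicate 2 left out and 3 with AS2 replicate 1 or Ctr replicate 2 left out. MYBL2, the B-MYB activator of G2 and mitosis genes, read 7.67 and 7.33 with AS2 against 8.53 and 9.0 with Ctr, 2.40-fold lower (-1.26 ± 0.18, adjusted p = 0.000691). E2F8, a repressor of the family, read 4.70 and 4.62 with AS2 against 5.70 and 6.04 with Ctr (-1.21 ± 0.14, adjusted p = 0.000273). E2F7, its closest relative and likewise a repressor, went the other way, at 10.32 and 10.30 with AS2 against 9.26 and 8.69 with Ctr, 2.53-fold higher (1.34 ± 0.17, adjusted p = 0.000467). These 3 calls held. FOXM1 (-0.72), RBL1 (-0.59), E2F1 (-0.56) and TFDP1 (-0.45) fell and TFDP2 (0.57) rose. Without AS2 replicate 2 none of these 5 was called, with adjusted p of 0.135, 0.176, 0.108, 0.186 and 0.263. The same 5 genes without AS2 replicate 1 had adjusted p of 0.0501, 0.0965, 0.0437, 0.124 and 0.0637. RBL1 and TFDP1 were not called without Ctr replicate 2 either (adjusted p = 0.142 and 0.209), nor was FOXM1 (adjusted p = 0.075), and TFDP2 was not called without Ctr replicate 1 (adjusted p = 0.209). By the median of probesets RBL1, TFDP1 and TFDP2 were not called (adjusted p = 0.0849, 0.162 and 0.0535). RB1 (-0.47), LIN9 (-0.48), RBL2 (-0.41), E2F4 (-0.19), LIN54 (0.19), LIN37 (0.16), E2F5 (0.11), E2F2 (-0.09) and E2F3 (-0.03) were not called.

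CDK inhibitors, which block the kinases of G1 and S phase, were divided. CDKN1A, which encodes p21, read 11.29 and 11.36 with AS2 against 10.80 and 10.73 with Ctr, 1.48-fold higher (0.56 ± 0.13, adjusted p = 0.00922). The INK4 genes CDKN2A (-0.51), CDKN2B (-0.59) and CDKN2C (-0.76) were lower with AS2, and CDKN1B (0.10), CDKN1C (-0.14) and CDKN2D (-0.10) were not called. Leaving out AS2 replicate 1 put CDKN1A at an adjusted p of 0.0517, leaving out AS2 replicate 2 at 0.0919 and leaving out Ctr replicate 2 at 0.0512. Taking the median of the probesets in place of the mean gave -0.18 for CDKN2A and -0.21 for CDKN2B, neither called, and dropping dim probesets ended the call of CDKN2C (-0.39). Without AS2 replicate 2 the INK4 genes had adjusted p of 0.196, 0.0956 and 0.07, and CDKN2A and CDKN2B were also not called when AS2 replicate 1 (0.0603 and 0.102) or Ctr replicate 1 (0.12 and 0.099) was left out. Cyclin E2 behaved like the replication genes: CCNE2 read 5.18 and 4.75 with AS2 against 6.58 and 6.94 with Ctr, 3.46-fold lower, and this call held. CCND1 (-0.23), the abundant G1 cyclin, was not called.

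Repair and chromatin genes that are used in S phase were lower. Of 26 measured homologous recombination and Fanconi genes, 13 fell and none rose (median -0.48), and the count was 5 without AS2 replicate 2 and 8 without AS2 replicate 1. The helicase gene BLM (-1.41), the nuclease gene EXO1 (-1.33), FANCI (-1.31) and FANCD2 (-1.14) held. Of 24 chromatin and DNA methylation enzymes, 8 fell and 1 rose, and leaving out either AS2 array or Ctr replicate 2 left 4 that fell. UHRF1, which guides maintenance methylation, read 7.37 and 7.14 with AS2 against 8.95 and 9.34 with Ctr, 3.70-fold lower (-1.89 ± 0.16, adjusted p = 3.66e-05). HELLS (-1.65), ATRX (-0.82) and the maintenance methyltransferase DNMT1 (-0.69) fell and held. LMNB1, the lamin whose loss marks senescent fibroblasts, read 5.88 and 5.74 with AS2 against 7.21 and 7.83 with Ctr, 3.26-fold lower (-1.71 ± 0.19, adjusted p = 0.000167).

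p53 target genes moved in the opposite direction. p53 is a transcription factor that responds to DNA damage and other stress by raising genes for arrest, repair and apoptosis. Of 33 measured targets, 20 rose and none fell (60.6%, median 0.59), and the count was between 13 without AS2 replicate 2 and 19 without Ctr replicate 2. GDF15, a secreted stress factor of the TGF-beta family, read 12.49 and 12.56 with AS2 against 10.69 and 9.81 with Ctr, 4.86-fold higher (2.28 ± 0.23, adjusted p = 0.000101). Its control arrays lay apart from each other and still well under the AS2 arrays. SPATA18 read 8.61 and 8.91 with AS2 against 7.25 and 7.37 with Ctr, 2.72-fold higher. AEN (1.11), an apoptosis-enhancing nuclease, TRIAP1 (1.08), GADD45A (1.02), RRM2B (0.96), TP53INP1 (0.96), BTG2 (0.93), EDA2R (0.88) and MDM2 (0.88), the ubiquitin ligase that returns p53 to low levels, rose and held. For TRIAP1 the median of its probesets gave -0.03 and no call, so its rise rested on some of its probesets. The proapoptotic gene BAX read 10.48 and 10.36 with AS2 against 9.94 and 10.15 with Ctr and was not called (0.38, adjusted p = 0.0757).

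**Figure D3:**
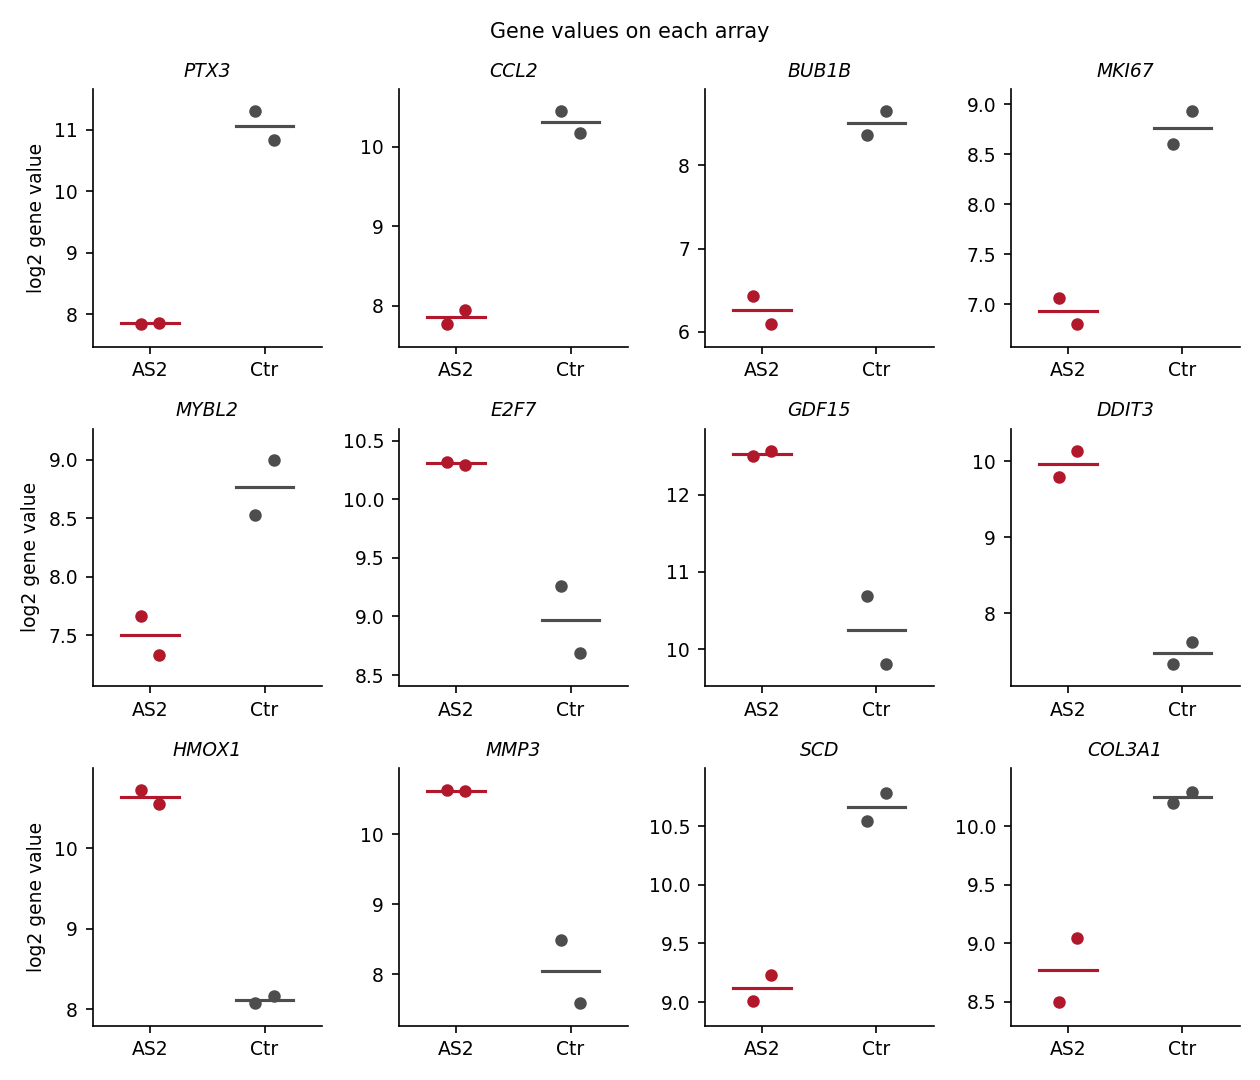
Log2 gene values of 12 genes on each array, with the 2 AS2 arrays (red) left of the 2 Ctr arrays (grey) and a bar at each group's mean. In all 12 genes the points of the groups are apart, with PTX3, CCL2, BUB1B, MKI67, MYBL2, SCD and COL3A1 lower with AS2 and E2F7, GDF15, DDIT3, HMOX1 and MMP3 higher.

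Stress response genes rose in part. When amino acids are scarce or proteins misfold, phosphorylation of eIF2 slows translation and the factor ATF4 raises genes for amino acid synthesis and import together with the later factors DDIT3 and TRIB3. Of 24 measured genes of that response, 10 rose and 4 fell (median 0.37), and without AS2 replicate 2 the counts were 6 and 2. DDIT3, which encodes CHOP, read 9.80 and 10.14 with AS2 against 7.34 and 7.62 with Ctr, 5.61-fold higher (2.49 ± 0.16, adjusted p = 6.76e-06). TRIB3 read 9.47 and 9.51 with AS2 against 8.06 and 8.06 with Ctr, 2.70-fold higher. PPP1R15A, the phosphatase subunit GADD34 that reverses the block on translation, read 10.78 and 10.73 with AS2 against 9.48 and 9.30 with Ctr, 2.58-fold higher. These calls held, as did those of SESN2 (0.82) and NUPR1 (0.82). ATF4 RNA itself was lower, at 9.40 and 9.02 with AS2 against 10.12 and 9.95 with Ctr (-0.83, adjusted p = 0.0138), although leaving out AS2 replicate 2 put it at an adjusted p of 0.175 and the median of its probesets at 0.0808. The biosynthetic members SHMT2 (-0.82) and CBS (-0.80) fell and held, and the asparagine synthetase gene ASNS (0.10) was not called. PHGDH (-0.60) was lower, but leaving out AS2 replicate 1 gave an adjusted p of 0.0861, AS2 replicate 2 0.0971 and Ctr replicate 2 0.102.

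Transport of amino acids changed beside it, with 7 of 18 transporter genes higher and 2 lower, the lower count being 1 when either AS2 array or Ctr replicate 1 was left out. SLC7A5, the large neutral amino acid carrier, read 10.34 and 10.35 with AS2 against 9.24 and 9.54 with Ctr (0.96 ± 0.14, adjusted p = 0.000917). SLC7A7 (1.23), SLC43A2 (0.94), SLC7A8 (0.92) and SLC6A6 (0.87) rose with it, whereas SLC38A4 fell 4.31-fold, to 5.29 and 5.32 with AS2, against 7.48 and 7.34 with Ctr. These 6 calls held. The unfolded protein response of the endoplasmic reticulum showed no such shift: 2 of 19 genes rose and 2 fell, close to the 20.9% of all genes. The sensor gene ERN1 was 2.47-fold higher and the chaperone gene HYOU1 1.98-fold lower, while HSPA5 (-0.31) and XBP1 (-0.24) were not called. Among 19 cytosolic tRNA synthetase genes 3 rose and 3 fell, of which QARS (-1.0) held, and without AS2 replicate 2 none rose and 1 fell.

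HMOX1, the heme-degrading enzyme and a well-known target of the oxidative stress factor NRF2, read 10.72 and 10.56 with AS2 against 8.07 and 8.16 with Ctr, 5.73-fold higher (2.52 ± 0.13, adjusted p = 1.96e-06). Of 26 measured NRF2 targets and redox genes, 8 rose (30.8%) and 4 fell (15.4%), beside 11.6% and 9.29% of all genes, with a median change of 0.07, and without AS2 replicate 2 there were 2 in each direction. AKR1B10 (1.39) rose and held, AKR1C2 (-1.61) and PGD (-0.74) fell and held, and NQO1, a standard reporter of the pathway, read 11.57 and 11.62 with AS2 against 11.51 and 11.58 with Ctr (0.05 ± 0.12, adjusted p = 0.872). Heat shock proteins had 6 of 12 members higher and none lower (median 0.38). Only HSPB8 (0.83) among them was also called without AS2 replicate 2, and it was 1 of 5 that were called without AS2 replicate 1.

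Secreted signals went both ways. Of 27 cytokine and chemokine genes, 6 rose and 5 fell, and 3 rose without AS2 replicate 2. Beside the falls of PTX3 and CCL2, LIF (-1.21) and IL18 (-1.0) were lower and held. IL18 was dim, at 3.76 and 3.64 with AS2 against 4.73 and 4.67 with Ctr. Its level stood at the 3.75th percentile of genes with AS2 and the 12.8th with Ctr. IL24, a cytokine of the IL-10 family, read 7.61 and 7.28 with AS2 against 5.27 and 5.28 with Ctr, 4.49-fold higher (2.17 ± 0.14, adjusted p = 7.98e-06). IL8 (now CXCL8), the neutrophil chemokine, read 7.76 and 7.70 with AS2 against 6.13 and 6.32 with Ctr, 2.83-fold higher. IL1A (1.18) rose and held, and IL6, a hallmark of the senescent secretome, read 5.93 and 5.70 with AS2 against 6.02 and 6.14 with Ctr and was not called (-0.27, adjusted p = 0.288). Among growth factors, 4 of 26 rose and 4 fell (15.4% each, beside 11.6% and 9.29% of all genes), with a median change of -0.03. Without AS2 replicate 1, 2 rose and 2 fell. INHBA, the activin A subunit, read 11.87 and 11.76 with AS2 against 9.82 and 10.17 with Ctr, 3.52-fold higher (1.82 ± 0.16, adjusted p = 4e-05). STC1 (1.52) rose and held, and PDGFD (-0.93) and BMP4 (-0.75) fell and held.

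Interferon-stimulated genes were not raised together. These genes respond to foreign nucleic acid through interferon, and of 33 measured 6 rose and 6 fell (median -0.04), or 3 and 2 without AS2 replicate 2. IFIT2 read 7.5 and 8.27 with AS2 against 5.91 and 6.08 with Ctr (1.89 ± 0.22, adjusted p = 0.000257), and RSAD2 read 6.21 and 6.72 against 5.05 and 4.72 (1.58 ± 0.22, adjusted p = 0.000653). In both genes AS2 replicate 2 was the higher of the AS2 arrays. SAMD9 (0.82) also rose and held. DDX58, the RNA sensor RIG-I, went down, to 6.38 and 6.74 with AS2, against 7.74 and 7.59 with Ctr (-1.11 ± 0.16, adjusted p = 0.000755), and IFI44L (-1.01) was lower too. IFI44L was dim, at the 6.32th percentile of gene levels with AS2 and the 16.9th with Ctr. IFNB1, the interferon beta gene, read 2.98 and 2.78 with AS2 and 3.09 and 2.86 with Ctr, low levels for these arrays. In the list of nucleic acid sensors, 3 of 21 genes fell and 1 rose (19.05% called, beside 20.9% of all genes), with a median change of -0.06. TMEM173 (now STING1), the adaptor for cytosolic DNA, read 9.16 and 8.95 with AS2 against 10.12 and 10.18 with Ctr, 2.14-fold lower (-1.10 ± 0.14, adjusted p = 0.000338), and TLR3 (-0.95) also fell, both calls holding. TLR3 was dim, at the 8.17th percentile of gene levels with AS2 and the 18.6th with Ctr. RNASEH1, the nuclease on which these oligonucleotides depend, read 9.20 and 9.12 with AS2 against 8.73 and 9.05 with Ctr and was not called (0.27, adjusted p = 0.245).

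Matrix genes, the main secretory output of fibroblasts, leaned downward. Of 26 collagen genes 8 fell and none rose (median -0.18), but the count was 1 without AS2 replicate 1, 3 without AS2 replicate 2 and 2 without Ctr replicate 2, so it rested on single arrays. COL3A1 read 8.5 and 9.05 with AS2 against 10.20 and 10.29 with Ctr, 2.78-fold lower (-1.47 ± 0.18, adjusted p = 0.000276), and was the collagen gene whose call held. Of 27 crosslinking, folding and elastic fibre genes 8 fell and 2 rose, the lower count being 3 without AS2 replicate 1. The lysyl oxidase relatives LOXL1 (-1.20) and LOXL3 (-0.77) and the fibrillin gene FBN2 (-0.94) fell and held, LOXL3 having an adjusted p of 0.0566 by the median of its probesets. Of 20 contractile and myofibroblast genes 8 fell and none rose, and LMOD1 (-0.87) and TGFB1I1 (-0.87) held, while the lower count was 4 without AS2 replicate 1 and 5 without AS2 replicate 2. Some genes for matrix-degrading enzymes went the other way, in a list whose median change was 0.03. MMP3, stromelysin, read 10.63 and 10.62 with AS2 against 8.5 and 7.59 with Ctr, 5.99-fold higher (2.58 ± 0.24, adjusted p = 5.68e-05). MMP10 (1.06) and the interstitial collagenase MMP1 (0.86) rose and held. Of the 25 genes in that list 5 were higher (20%, beside 11.6% of all genes) and none lower, or 3 higher without AS2 replicate 2. The other 20 were not called. SPP1 (1.55), osteopontin, rose and held among 23 matrix glycoprotein and proteoglycan genes of which 1 rose and 2 fell, none falling without AS2 replicate 1 and 4 without Ctr replicate 1. Of 30 integrin and focal adhesion genes 6 fell (20%) and 3 rose (10%), beside 9.29% and 11.6% of all genes, with a median change of -0.16. Without AS2 replicate 2, 4 fell and 1 rose. ITGB8 (-1.64), ITGA4 (-1.43) and the adaptor kinase ILK (-1.07) were lower and ITGA9 (1.23) was higher, all holding.

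Several lipid synthesis genes on the fatty acid side fell. Of 23 measured fatty acid genes 8 fell (34.8%) and 2 rose (8.70%), beside 9.29% and 11.6% of all genes. The other 13 were not called, and the median change was -0.09. Whichever AS2 or Ctr array was left out, 6 or 7 fell. SCD, the stearoyl-CoA desaturase that makes oleate, read 9.01 and 9.23 with AS2 against 10.55 and 10.79 with Ctr, 2.92-fold lower (-1.54 ± 0.16, adjusted p = 0.000128). ELOVL2, an elongase of polyunsaturated fatty acids, read 6.12 and 6.29 with AS2 against 8.01 and 8.56 with Ctr, 4.23-fold lower (-2.08 ± 0.18, adjusted p = 3.64e-05). ACSS2 (-1.0), FADS2 (-0.87), the fatty acid synthase FASN (-0.80) and PPARG (-0.76), the nuclear receptor of adipocytes, fell and held. PNPLA3 (0.80) rose and held. Of 27 cholesterol genes 6 fell and 2 rose, and none fell without AS2 replicate 2, while 2 fell without AS2 replicate 1 or Ctr replicate 2. The cholesterol exporter ABCA1 (0.75) was the member whose call held.

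MALAT1 sits in nuclear speckles with the SR splicing factors, whose RNAs changed little. Of 20 measured genes for SR proteins and their kinases 1 was called, 5% beside 20.9% of all genes, with a median change of 0.01. That gene was the kinase SRPK2 (-0.67, adjusted p = 0.00697), and leaving out AS2 replicate 1 put it at 0.0758. Of 35 hnRNP and other splicing regulator genes, 5 fell and 2 rose, 20% beside 20.9% of all genes, and 3 fell without AS2 replicate 2 or Ctr replicate 2. PTBP2, a splicing repressor best known from neurons, read 8.77 and 9.11 with AS2 against 7.09 and 7.64 with Ctr, 2.97-fold higher (1.57 ± 0.19, adjusted p = 0.000291). HNRNPAB (-1.13), NOVA1 (-1.11) and MBNL3 (-0.82) fell and held. Among other noncoding RNAs, SNHG12 (0.93) rose and held.

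The exon arrays also show where the probesets of one gene changed unequally. By limma's diffSplice F test 1667 of 9579 genes (17.4%) had unequal changes, with 714 without AS2 replicate 2 and 908 without Ctr replicate 1, and 458 did whichever array was left out. Dim probesets and dim genes were not entered in this test, and the arrays left out of it in turn were those of AS2 and Ctr only. The gene as a whole was called in 57.4% of these 1667 genes, beside 26.0% of those tested, so whole-gene change and unequal change often came together. DDX3X, an RNA helicase, had the sharpest single difference among the 8 strongest genes: its probeset 3974889 read 9.98 and 9.60 with AS2 against 4.19 and 3.72 with Ctr, a change of 5.84 while the gene changed by 0.75. In CD44, a hyaluronan receptor with many variable exons, probeset 3326696 read 10.17 and 10.26 with AS2 against 7.25 and 7.72 with Ctr, a change of 2.73 beside 0.55 for the gene. In TTLL7, a tubulin polyglutamylase, probeset 2420282 read 4.82 and 4.50 with AS2 against 9.47 and 9.62 with Ctr, a change of -4.88 beside -1.34 for the gene. These 3 probesets thus moved several times further than their genes. The reverse was seen in genes that rose strongly. Probeset 3522580 of DOCK9 read 8.37 and 8.16 with AS2 and 8.47 and 8.18 with Ctr while the gene rose by 2.44, and probeset 3458903 of AVIL read 7.41 and 7.07 with AS2 and 7.27 and 7.02 with Ctr while the gene rose by 3.75. In AGBL2 probeset 3372427 rose by 7.11, beyond the 3.97 of the gene. KIF1B (probeset 2319778, 2.13) and USP34 (probeset 2555374, -1.31 against 0.51 for the gene) complete the 8, and the F test of each kept an adjusted p under 0.05 in every fit that left out an array. By the median of probesets the genes DDX3X (0.27), CD44 (0.27) and USP34 (0.35) were not called. The gene calls of CD44 and USP34 also did not hold: without AS2 replicate 1 their adjusted p was 0.0561 and 0.0542, without AS2 replicate 2 it was 0.0991 and 0.261, CD44 had 0.0547 without Ctr replicate 2 and USP34 had 0.144 without Ctr replicate 1.

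Of 416 genes with ZNF symbols, most of which encode zinc finger transcription factors, 114 rose (27.4%) and 7 fell (1.68%), beside 11.6% and 9.29% of all genes, with a median change of 0.22. The other 295 were not called, and the higher count was 43 without AS2 replicate 2 and 100 without Ctr replicate 2. ZNF578 read 5.83 and 6.65 with AS2 against 3.77 and 3.53 with Ctr (2.59 ± 0.25, adjusted p = 7.85e-05), and ZNF432 read 8.88 and 9.05 against 6.62 and 6.83 (2.24 ± 0.14, adjusted p = 4.4e-06). In both, the AS2 arrays lay at least 2 log2 units above the Ctr arrays. ZNF70 (-0.95), ZNF280C (-0.88) and ZNF367 (-0.76) fell and held, ZNF280C not being called by the median of its probesets (adjusted p = 0.107). Of 307 solute carriers 40 rose and 33 fell, shares of 13.03% and 10.7% that lie close to those of all genes. Olfactory receptors, which lung fibroblasts are not known to use, had 4 of 148 genes called (2.70%). Housekeeping groups stayed near zero, with medians of 0.08 for 20 ribosomal protein genes, -0.05 for 31 proteasome genes and -0.08 for 26 respiratory chain genes, and 2, 4 and 3 calls, none of which held. Among 12 common reference genes IPO8 was 3.15-fold lower, at 6.39 and 6.49 with AS2 against 8.0 and 8.18 with Ctr, a call that held.

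Several further groups held single large changes. Of 32 tubulin and cilia genes 10 fell and 4 rose (43.8% called), with TUBA1A, a main alpha tubulin, at 9.19 and 9.19 with AS2 against 10.54 and 10.82 with Ctr (-1.49) and the intraflagellar transport gene IFT80 at -1.23. Of 28 autophagy and lysosome genes 5 rose and none fell (17.9% called), and the fucosidase gene FUCA1 (1.45) was the one that held, the count being 1 without AS2 replicate 2. Among 23 YAP, SRF and TGF-beta response genes 5 rose and 2 fell (30.4% called), with ANKRD1 (1.46) and SMAD7 (0.85) holding, although SMAD7 was not called by the median of its probesets (0.46, adjusted p = 0.11), and 2 rose and none fell without AS2 replicate 1 or AS2 replicate 2. Among 26 immediate early genes 4 rose and 1 fell (19.2% called). IER3 (1.08) and the orphan nuclear receptors NR4A1 (0.99) and NR4A3 (0.95) rose and held. In the glycolysis and hypoxia list of 27, the regulator PFKFB4 (1.1) rose and the phosphofructokinase PFKL (-0.98) fell, both holding, and 3 genes were called in all (11.1%). The shares of the autophagy, immediate early and glycolysis lists were below that of all genes.

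**Figure D4:**
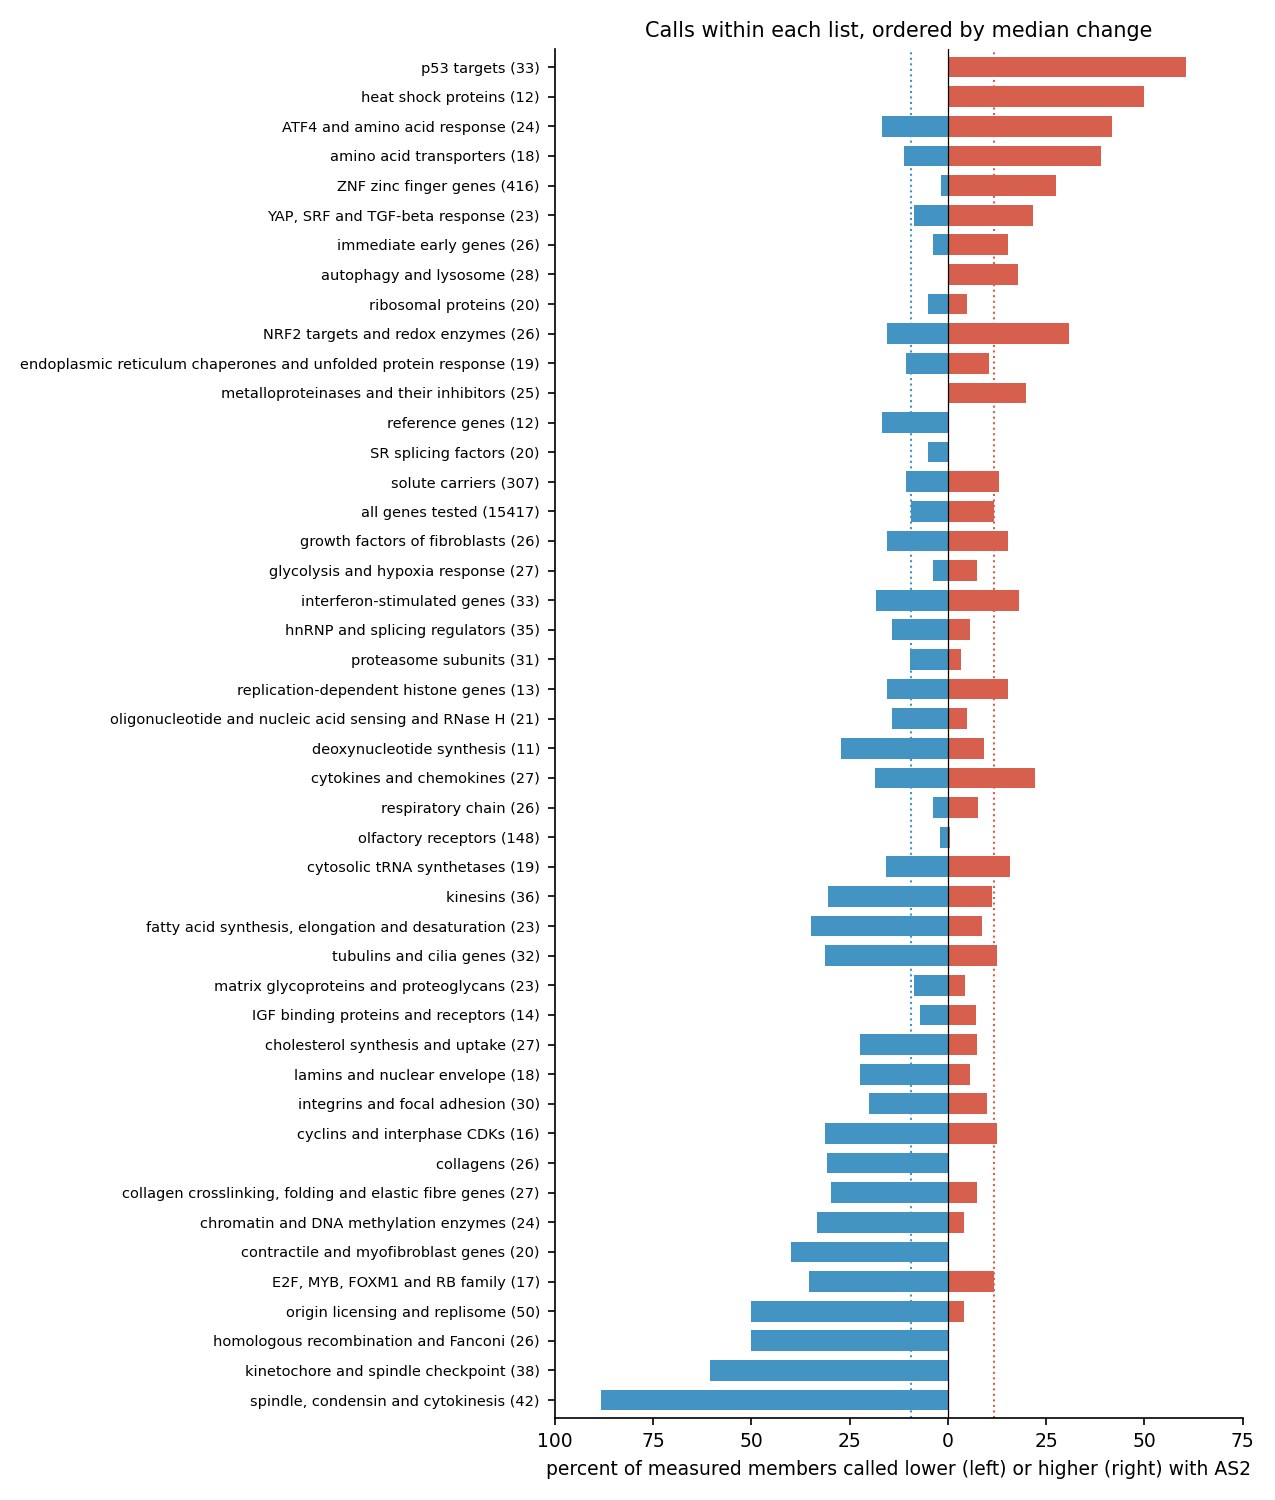
Share of the measured members of each list that was called lower (blue, to the left) or higher (red, to the right) with AS2, with the number measured in brackets and lists ordered by median change. The dotted lines mark all genes, 9.29% lower and 11.6% higher, and the spindle list at the bottom and the p53 targets at the top extend farthest from them.

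Markers of the labelled cell type were present. The 18 measured fibroblast markers averaged 9.44 and 9.65 with AS2 and 9.77 and 9.93 with Ctr on the log2 scale, and 7 fell and 3 rose, or 2 and 1 without AS2 replicate 1. PDGFRA (-0.85) fell and held together with COL3A1. Epithelial markers averaged 5.87 and 5.82 with AS2 and 5.84 and 5.62 with Ctr, with 2 of 12 called, and endothelial markers averaged 5.91 and 5.86 with AS2 and 5.95 and 5.83 with Ctr, with 4 of 11 called. Leukocyte markers averaged 5.13 and 4.96 with AS2 and 4.99 and 4.83 with Ctr, and 1 of 9 was called, CD79A at 7.54 and 7.38 with AS2 against 5.47 and 5.45 with Ctr. The defining markers EPCAM (4.70 and 4.70 with AS2, 4.27 and 4.36 with Ctr) and PTPRC (3.48 and 3.40 with AS2, 3.54 and 3.41 with Ctr) were not called. EPCAM lay at percentile 13.1 of gene levels with AS2 and 8.48 with Ctr, and PTPRC at 2.1 with AS2 and 1.97 with Ctr. Their part in the changes above was not tested.

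The AS2 and AS1 responses were compared directly, since both share the Ctr arrays. By the AS2 minus AS1 contrast 166 genes differed (1.08% of those tested), 88 higher and 78 lower with AS2, and 117 of them were also called against Ctr. The count was 13 without AS2 replicate 1, 20 without AS2 replicate 2 and 274 without either Ctr array. Of the 3224 genes called with AS2, 3.63% differed from AS1. There were 927 genes called with AS2 and not with AS1, and 60 of these differed by the direct test. The widest gaps among genes that fell were in 3 genes. CPSF2, a subunit of the machinery that cleaves pre-mRNA 3′ ends, read 6.95 and 6.95 with AS2, against 9.04 and 8.76 with AS1 and 9.21 and 9.36 with Ctr. SECISBP2, which directs selenocysteine into proteins, read 6.44 and 6.43 with AS2, against 8.76 and 8.58 with AS1 and 8.19 and 8.61 with Ctr. SLCO3A1, an organic anion transporter, read 5.96 and 5.84 with AS2, against 7.59 and 7.57 with AS1 and 7.94 and 8.10 with Ctr. In these genes the AS1 arrays lay near the Ctr arrays and only the AS2 arrays stood apart, and the 3 differences from AS1 each had an adjusted p of 0.000308. CAMK4 and VPS13A were intermediate with AS1, with changes of -2.01 and -2.04 under AS2 that differed from those of AS1 by -1.26 and -1.09, and SLC36A4 differed by -0.90.

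Several genes raised by both oligonucleotides stood higher with AS2. TTC23L read 7.39 and 7.72 with AS2, against 6.54 and 6.45 with AS1 and 4.21 and 3.81 with Ctr. SLC13A4 read 9.50 and 9.52 with AS2, against 8.31 and 8.56 with AS1 and 6.58 and 6.37 with Ctr. MICALCL read 7.67 and 7.88 with AS2, against 6.73 and 6.90 with AS1 and 4.77 and 4.73 with Ctr. In each of these the 3 pairs of arrays did not overlap. IFIT2 ran the other way and read 7.5 and 8.27 with AS2, against 10.12 and 10.44 with AS1 and 5.91 and 6.08 with Ctr. Of the 38 kinetochore, 42 spindle and 50 replication genes measured, 1 differed between the oligonucleotides, beside 1.08% of all genes. It was CENPP (-1.59), by -1.11 (adjusted p = 0.00858). Of the 33 interferon-stimulated genes, 9 differed between AS2 and AS1.

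**Figure D5:**
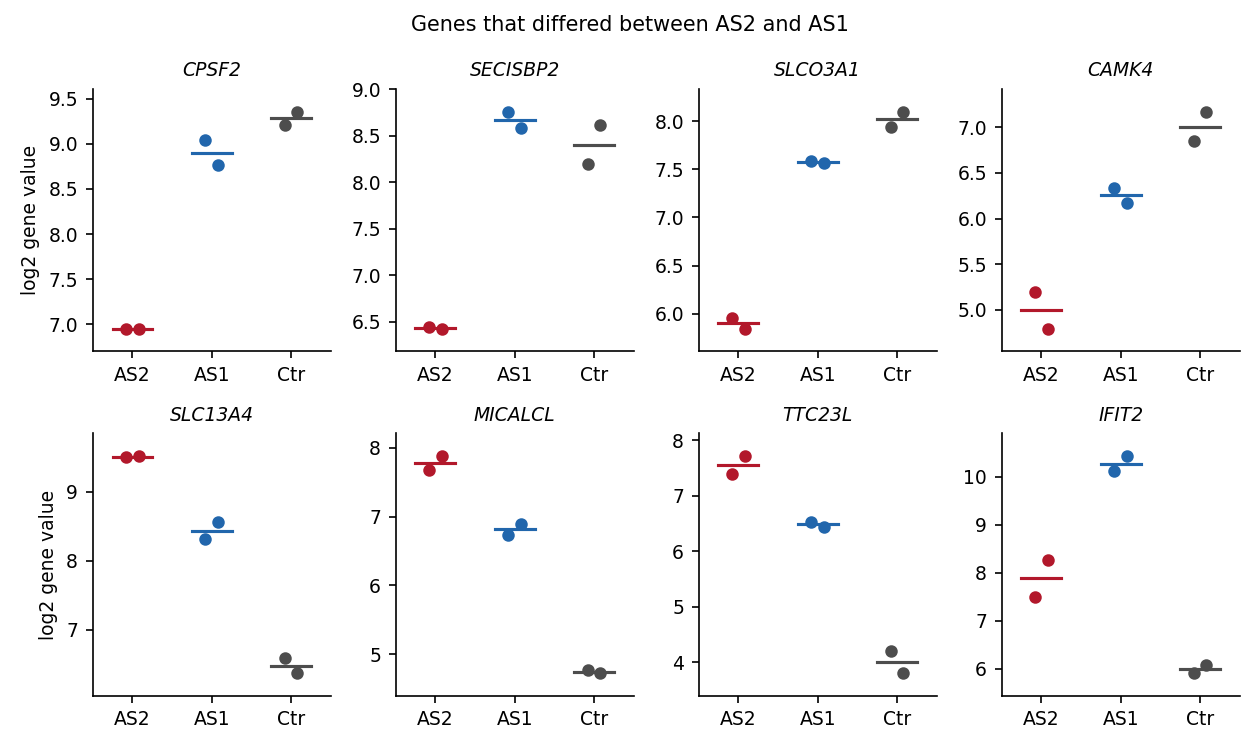
Log2 gene values of 8 genes that differed between AS2 (red, left) and AS1 (blue, middle), beside Ctr (grey, right), with 2 arrays per group and a bar at the group mean. In CPSF2, SECISBP2 and SLCO3A1 the AS2 arrays stand apart from both other groups, while in IFIT2 the AS1 arrays are the highest.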

How the data were processed

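RNA from WI-38 cells was measured on 6 Affymetrix Human Exon 1.0 ST arrays, 2 each for AS2, AS1 and Ctr. The authors deposited log2 values of 232479 probesets, and the submitters' processing notes name RMA and Partek. Of these probesets 216780 carry 1 symbol, 2335 several and 13364 none. The mean over a symbol's probesets was taken as its gene value, and 1156 genes with fewer than 3 were left out. No array background or depth is known, so the number of arrays limits the precision.

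The 3 groups were fitted together with limma 3.58.1 in R 4.3.3 (lmFit, contrast AS2 minus Ctr, eBayes), and p-values were adjusted by Benjamini-Hochberg over 15417 genes. The exon test was diffSplice on the same arrays. Tables and figures were made with Python 3.11.15, pandas 2.3.3 and matplotlib 3.10.9. Scripts were tested on simulated data. Other gene summaries, filters, normalizations, variance models and sample sets were run. Each array was left out in turn in the gene fits, and each AS2 and Ctr array in the exon test.

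The genes named are MALAT1, the 15 highest and 15 lowest called genes, the 10 of each among genes of at least median level, up to 6 members a list by size of change with called members that moved against the list, the 5 highest and 5 lowest that also differ from AS1, the 8 with the smallest exon test p, the E2F family and CDK inhibitors, and members whose role needs them. Members and lists were chosen with earlier results of these data known. Promoter windows are RefSeq's on GRCh38.p14, matched by symbol.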

Additional observations from a re-analysis of the deposited data

Results flagged for a closer look

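The genes below are those named above whose AS2 and AS1 responses differed by the direct test, with both measured against the same Ctr arrays. Lower with AS2 than with AS1 on the log2 scale were IFIT2 by -2.40, SECISBP2 by -2.24, CPSF2 by -1.95, SLCO3A1 by -1.68, CAMK4 by -1.26, SRPK2 by -1.16, C13orf15 by -1.19, CENPP by -1.11, VPS13A by -1.09, DDX58 by -1.09, RSAD2 by -1.08 and SLC36A4 by -0.90. Higher with AS2 than with AS1 were GDF9 by 1.14, SLC13A4 by 1.07, TTC23L by 1.06, MICALCL by 0.96, PYGM by 0.93, CCDC62 by 0.75, CD79A by 0.72, AVIL by 0.67 and AGBL2 by 0.67. Among them SRPK2 had differences from Ctr of opposite sign, -0.67 with AS2 and 0.48 with AS1. SECISBP2 stood at -1.97 with AS2 and 0.27 with AS1, but its AS1 arrays (8.76 and 8.58) lay near the Ctr arrays (8.19 and 8.61).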

How the results depend on the processing

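The 3224 calls (1792 higher, 1432 lower) depended on the variance model and on single arrays. An ANOVA without moderation, as in the methods, gave 436 (258 higher, 178 lower). It ended 129 calls among the other named genes, many of them held above, and left MALAT1 at an adjusted p of 0.0754 with its change of -3.82. The spread in that fit includes the AS1 arrays, where MALAT1 read 9.23 and 7.82. With the AS2 and Ctr arrays only, limma gave MALAT1 an adjusted p of 5.44e-14. The methods' threshold of 2-fold and an unadjusted p under 0.001 gave 637 in limma (357 higher, 280 lower) and 147 in the ANOVA (104 higher, 43 lower), which does not count MALAT1, at -3.82. Leaving out 1 array gave 1259 to 3581 calls, 680 to 1982 higher and 579 to 1599 lower, 714 to 1600 genes with unequal probesets, and 13 to 274 genes that differed between AS2 and AS1. A block for arrays with the lower first quartile of values, chosen after seeing the data, gave 4884 calls, 2208 of them lower. With the replicate number as a replicate block there were 2556 calls (1438 higher, 1118 lower). The deviations of same-numbered arrays correlated at 0.39 for AS2 with Ctr, -0.34 for AS1 with AS2 and -0.51 for AS1 with Ctr. The numbers thus did not order the 3 groups alike. Whether AS2 and Ctr arrays of the same number belonged together was not tested, and the labels do not say. The median of probesets gave 2188 calls (1211 higher, 977 lower), turned TRIAP1 to -0.033 and ended 12 calls among named genes. Re-normalizing by quantiles, centring, trended or robust moderation and filters on dim probesets or genes kept the total within 1.5 times, between 2968 and 3951. The cause of these differences was not tested. With 2 arrays a group, the smallest change called was 0.39 and the largest not called was 0.85, so changes up to that size could be missed.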
